A study of Arabidopsis thaliana with 24 samples.

Results

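The cysteine-rich receptor-like kinases, or CRKs, are one of the large receptor kinase families of Arabidopsis thaliana. The genes described here are the 41 CRK genes found by a fixed list of their locus identifiers, of 32548 genes in the expression tables. On chromosome 4 lie 36 of them, and 33 of these stand in 4 runs of neighbouring family members with 20, 5, 5 and 3 genes. Expression passed the filter of the test for 39 members. CRK33 (AT4G11490) was at 0 in all 24 libraries, and CRK1 (AT1G19090, RKF2 in the annotation) was at 0 in all libraries but 1, where its value was 0.834. All 41 identifiers were matched by the reference annotation, which has protein-coding gene models for each of them.

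A CRK protein carries extracellular DUF26 domains with a conserved arrangement of cysteines, a membrane-spanning segment and a cytoplasmic kinase domain. Many CRK genes respond to salicylic acid, to bacteria and to reactive oxygen species, and several of the proteins act beside the immune receptors that sense microbial patterns or beside the NADPH oxidase RBOHD, which makes the extracellular oxidative burst. Transcription of many pathogen-responsive genes in plants goes through WRKY factors, which bind the W-box in promoters.

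RNA was sequenced from whole seedlings 11 days old, grown on MS plates in days of 16 h light and 8 h dark. The 24 libraries cover wild type (Col-0, 6 libraries) and 9 other genotypes with 2 libraries each, deposited in 3 tables that were each normalised on their own and are called sets 1 to 3. Set 1 holds Col-0 and ino80 (mutant in the chromatin remodeller INO80). Set 2 holds Col-0, jmj24 (mutant in JMJ24, a JmjC-domain gene) and atx4/5;jmj24 (mutant in JMJ24 and in the histone H3 lysine 4 methyltransferase genes ATX4 and ATX5). Set 3 holds Col-0, atx1/2 (mutant in ATX1 and ATX2), atx4/5 (in ATX4 and ATX5), atx1/2/4/5 (in these 4 genes), atx2/3/4/5 (in ATX2, ATX3, ATX4 and ATX5), jmj24/26/28 (in JMJ24, JMJ26 and JMJ28) and WDR5A_RNAi (an RNA interference line against WDR5A, a core subunit of the COMPASS complexes that methylate H3 lysine 4). The labels mark the mutations as homozygous, and give neither the alleles nor the number of plants in a library. They do not say whether replicates came from separate cultures, so p-values measure only the spread between these libraries. The series title concerns redundancy among the COMPASS complexes.

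Values were normalised by the authors and are called the signal here. From their spacing they look like read counts adjusted to a common library size within a table, though not every value is a whole read on that scale. They are not scaled for gene length, and 1 read is worth an estimated 0.834 to 1.21 units, so a signal of 10 rests on about 10 reads. By this estimate libraries held 18.8 to 33.5 M reads. Replicates correlated at r = 0.986 to 0.99 across genes. Genotypes were set against the Col-0 samples sharing their table, by limma on log2(signal + 1), with Benjamini-Hochberg adjustment over all genes tested in the table (22934, 23740 and 24843). A gene is called higher or lower, or is said to have risen or fallen, when its adjusted p is under 0.05. Fold changes on this scale understate the change of genes with a low signal.

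The targeted genes did not all fit their labels at the level of whole genes. ATX4 fell in the libraries labelled atx4/5, atx1/2/4/5, atx2/3/4/5 and atx4/5;jmj24, JMJ24 fell in all 3 groups named for it, JMJ26 and JMJ28 fell in jmj24/26/28, and INO80 fell in ino80. ATX5 fell in atx4/5, atx1/2/4/5 and atx2/3/4/5. In atx4/5;jmj24 it was not called, at 518 and 638 beside 434 and 476 in Col-0, so both libraries lay above wild type. In jmj24 of the same set ATX5 was at 819 and 813, so both atx4/5;jmj24 libraries lay below jmj24. ATX4 was at 1175 and 1073 in jmj24, beside 495 and 452 in Col-0. Both libraries of ino80, jmj24/26/28 and WDR5A_RNAi likewise lay above their Col-0 in ATX4 and ATX5. ATX1 was not called in either group named for it: it was at 181 and 181 in atx1/2, and at 568 in replicate 1 and 191 in replicate 2 of atx1/2/4/5, beside 258 and 257 in Col-0. Replicate 1 of atx1/2/4/5 therefore goes against its label in ATX1, at the level of the whole gene. ATX2 was not called in the 3 groups named for it, at 1313 to 1382 beside 1273 and 1393. For libraries with the label atx2/3/4/5, ATX3 was raised, at 740.5 and 639.9 against 388 and 384 in Col-0 (log2 fold change 0.83 ± 0.10, adjusted p = 7.65e-06). For those with the label WDR5A_RNAi, WDR5A was raised, at 870.3 and 965 against 86.9 and 113 (log2 fold change 3.19 ± 0.18, adjusted p = 3.22e-07). A gene's signal cannot tell a full transcript from a shortened one or from transgene reads, so genotype names stand below for the libraries that carry the label, and directions given for WDR5A_RNAi, atx2/3/4/5, atx1/2/4/5, atx1/2 and atx4/5;jmj24 rest on the label.

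The run of 20 genes spans chr4:12117491-12191704 in TAIR10.1 and reaches from CRK5 to CRK24 without a gap in the numbering. CRK36 to CRK40 lie within chr4:2231717-2292965, CRK30 to CRK34 within chr4:6963521-6989793, and CRK27 to CRK29 within chr4:11319139-11405235. CRK1 to CRK4, CRK25, CRK26, CRK41 and CRK42 stand outside these runs. Neighbours are similar in sequence, so reads can be shared: the share of 50-base windows of the exons found nowhere else in the genome had a median of 99.5% over the members, with the lowest shares at 78% in CRK6, 83.5% in CRK8, 83.8% in CRK22 and 84.6% in CRK13. Exons or gene bodies overlap by 1190 bases on the same strand between CRK16 and CRK17 (EMB1290 in the annotation) and by 470 bases between CRK28 and CRK29. How the authors counted reads with several matches is not given in the sources used here, so the split of reads between such genes is uncertain.

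Of the 41 members, 26 (63.4%) held a W-box within 250 bases upstream of the annotated gene start, and 11 (26.8%) held at least 2. The motif was searched as TTGACC or TTGACT on both strands. Over 27443 protein-coding genes of the tables the same windows held it in 28.4%, and at least 2 in 6.2%. Among the members called higher in atx2/3/4/5 it was in 19 of 26, among those called lower in 3 of 7 and among those not called in 4 of 6. In atx1/2/4/5 the counts were 12 of 17, 4 of 8 and 10 of 14. A match says only that the letters are there. The 6 windows below are shown because the results below turn on these genes: CRK6, CRK7, CRK36 and CRK38 are among the members that rose, and the neighbours CRK17 and CRK18 differed from each other in their pattern. The sequences are from the RefSeq TAIR10.1 genome, 5′ to 3′ on the strand of the gene, with W-boxes in capitals (GGTCAA and AGTCAA are the motif on the other strand).
CRK6 promoter, chr4:12121119-12121368, plus strand: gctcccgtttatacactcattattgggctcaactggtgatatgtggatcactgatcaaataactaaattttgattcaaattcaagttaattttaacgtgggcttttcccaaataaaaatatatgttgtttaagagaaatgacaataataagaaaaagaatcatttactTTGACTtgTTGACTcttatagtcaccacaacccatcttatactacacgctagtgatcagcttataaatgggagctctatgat
CRK7 promoter, chr4:12125414-12125663, plus strand: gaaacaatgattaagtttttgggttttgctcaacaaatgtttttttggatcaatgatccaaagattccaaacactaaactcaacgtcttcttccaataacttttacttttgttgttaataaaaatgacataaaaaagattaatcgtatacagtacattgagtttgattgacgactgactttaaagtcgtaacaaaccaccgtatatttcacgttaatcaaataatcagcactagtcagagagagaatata
CRK36 promoter, chr4:2234690-2234939, minus strand: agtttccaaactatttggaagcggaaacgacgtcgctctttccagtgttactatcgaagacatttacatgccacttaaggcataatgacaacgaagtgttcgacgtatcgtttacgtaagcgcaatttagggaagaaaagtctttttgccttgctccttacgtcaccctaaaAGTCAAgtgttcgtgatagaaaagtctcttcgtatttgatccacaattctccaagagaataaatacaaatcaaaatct
CRK38 promoter, chr4:2241822-2242071, plus strand: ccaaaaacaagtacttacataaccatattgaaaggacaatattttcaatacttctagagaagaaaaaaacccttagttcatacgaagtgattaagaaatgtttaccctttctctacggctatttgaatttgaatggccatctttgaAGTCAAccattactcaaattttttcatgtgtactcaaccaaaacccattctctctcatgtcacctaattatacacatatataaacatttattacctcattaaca
CRK17 promoter, chr4:12167027-12167276, minus strand: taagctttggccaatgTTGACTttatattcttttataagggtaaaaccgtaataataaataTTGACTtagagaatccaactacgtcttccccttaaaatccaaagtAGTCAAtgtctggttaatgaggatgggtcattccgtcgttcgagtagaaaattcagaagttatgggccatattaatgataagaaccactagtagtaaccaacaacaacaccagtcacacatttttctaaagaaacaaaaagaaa
CRK18 promoter, chr4:12170081-12170330, minus strand: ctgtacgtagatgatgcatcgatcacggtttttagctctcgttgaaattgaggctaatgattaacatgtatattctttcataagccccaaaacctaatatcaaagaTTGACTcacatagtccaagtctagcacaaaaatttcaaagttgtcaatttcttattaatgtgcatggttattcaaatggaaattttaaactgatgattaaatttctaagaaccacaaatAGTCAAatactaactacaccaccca
CRK6 holds 2 W-boxes, starting 82 and 74 bases before the gene start, while CRK7, the next gene, holds none in its window. CRK36 and CRK38 hold 1 each, 78 and 104 bases before the start. CRK17 holds 3 and CRK18 holds 2, and each of the 2 windows has 1 that starts 144 bases before the gene.

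In wild type the members spanned a wide range of levels. Levels per kilobase of exon were highest for CRK10, a receptor kinase with a role in the vasculature, at a mean of 589 over the 6 Col-0 libraries (lowest 313, median 653, highest 700.0). CRK3 followed at a mean level of 535 (325, 517 and 782). CRK2, which phosphorylates RBOHD, had a mean level of 511 (259, 594 and 645). CRK21 ranked 4 at a mean level of 480 (197, 475 and 808). It was the highest member in set 3, at a mean of 755 beside 606 for CRK10, and ranked 12 in set 2, at 212. The ranges of these 4 genes overlap and the sets were normalised separately, so their order is not resolved. The lowest members above 0 were CRK38 at a mean level of 0.846 per kilobase (0, 0.450 and 2.39), CRK39 at 0.888 (0, 0.814 and 2.07) and CRK23 at 1.29 (0.339, 1.35 and 1.77). Their ranges overlap too, and each rests on a few reads per library. Of the 39 members tested, 21 had a mean level under 50 per kilobase in the 4 Col-0 libraries of sets 1 and 2.

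The genotypes labelled atx1/2/4/5 and atx2/3/4/5 changed most of the family. In atx2/3/4/5, 26 of the 39 members tested were higher and 7 lower, 84.6% in all, where 38% of all genes were called (17.8% higher and 20.1% lower). In atx1/2/4/5, 17 were higher and 8 lower, 64.1%, beside 33.3% of all genes (16.2% and 17.1%). The median log2 fold change of the members was 1.25 in atx2/3/4/5 and 0.42 in atx1/2/4/5, while that of all genes was 0 in each. Without replicate 1 of atx1/2/4/5, the library with the high ATX1 signal, 11 members were higher and 7 lower in that genotype. These 2 comparisons use the same Col-0 libraries, as do the other comparisons of set 3.

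The 7 other genotypes had fewer calls. In ino80, 5 members were higher and 5 lower, 25.6% beside 22.4% of all genes (10.7% higher and 11.7% lower), which is close to the background. In jmj24/26/28, 3 were higher and 7 lower, 25.6% beside 3.85% of all genes (1.27% higher and 2.58% lower). The 7 include the overlapping neighbours CRK28 and CRK29, both at 0 there, and 3 of the 10 calls remained without any 1 library. In WDR5A_RNAi, 6 were higher and 2 lower, 20.5% beside 9.57% of all genes (4.53% higher and 5.04% lower). In atx4/5 none was higher and 4 were lower, 10.3% beside 3.23% of all genes (0.962% higher and 2.27% lower). In jmj24, 1 was higher and 3 lower, 10.3% beside 2.82% of all genes (1.39% higher and 1.43% lower). In atx4/5;jmj24, 1 was higher and 4 lower, 12.8% beside 7.71% of all genes (3.2% higher and 4.51% lower). In atx1/2, 0 of the 39 members were called by limma, beside 0.282% of all genes (0.0805% higher and 0.201% lower). A missed call does not show that a member did not differ.

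**Figure D1:**
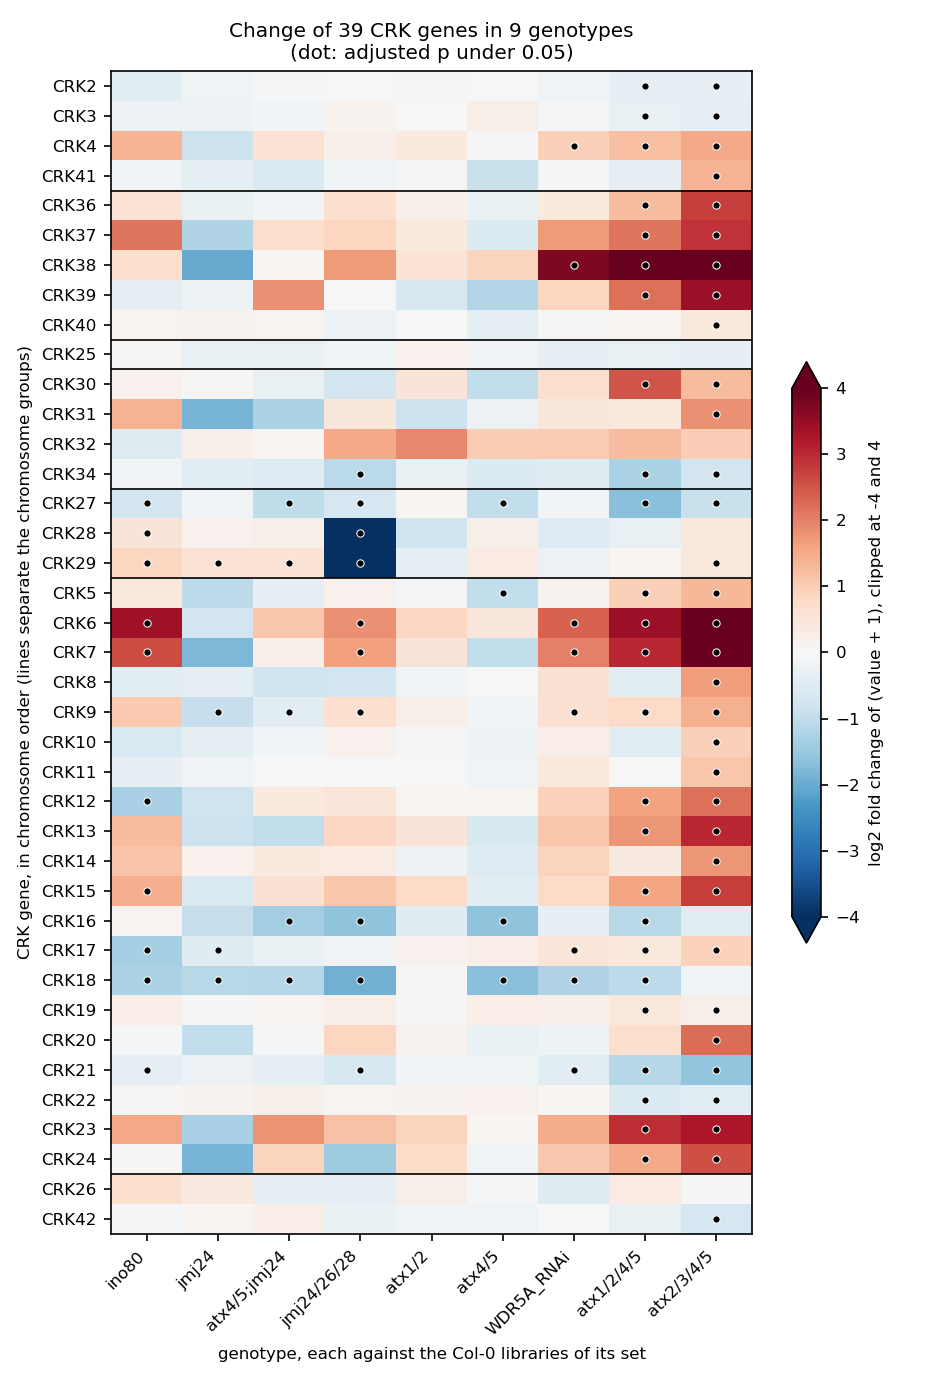
Log2 fold change of signal + 1 for the 39 CRK genes tested (rows, in chromosome order, with lines between the runs of neighbours) in 9 genotypes (columns), each against Col-0 of the same set, n = 2 libraries a mutant group and 2 a Col-0 group. Red is higher and blue is lower, the colours are clipped at -4 and 4, and a dot marks an adjusted p under 0.05. The 26 red dots of atx2/3/4/5 and the 17 of atx1/2/4/5 lie in all 4 runs and in 3 of the 4 runs respectively, besides dispersed genes, and CRK18 has a blue dot in 7 of the 9 columns.

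CRK6 and CRK7, adjacent genes whose loss makes plants more sensitive to oxidative stress, rose in both of these genotypes. The signal of CRK6 (AT4G23140) was 13.4 and 35.3 in Col-0, 262 and 226 in atx1/2/4/5 (log2 fold change 3.42 ± 0.37, adjusted p = 1.87e-05) and 357 and 361 in atx2/3/4/5 (log2 fold change 3.98 ± 0.37, adjusted p = 3.47e-06). The signal of CRK7 (AT4G23150) was 9.17 and 4.86 in Col-0, 64.4 and 58.9 in atx1/2/4/5 (log2 fold change 3.02 ± 0.40, adjusted p = 3.04e-05) and 141 and 99.7 in atx2/3/4/5 (log2 fold change 3.95 ± 0.40, adjusted p = 1.43e-06). All mutant libraries lay far above both Col-0 libraries, and these 4 calls held without any 1 library and under every other setting tried.

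CRK38 (AT4G04510) went from no signal in Col-0 to a moderate one. It was at 0 in both Col-0 libraries of set 3, at 18.8 and 30.5 in atx1/2/4/5 and at 52.8 and 35.4 in atx2/3/4/5, which is at least 8.196-fold and at least 14.68-fold above 3 reads per library, the floor used for groups at 0 (adjusted p = 3.76e-05 and 5.27e-06). In the Col-0 libraries of sets 1 and 2 it was not always silent, with values of 0.0110 and 2.04 and of 5.44 and 4.04. CRK39, the next member of the same run, had a signal of 4.06 and 0 in Col-0, 7.69 and 11.5 in atx1/2/4/5 (log2 fold change 2.21 ± 0.81, adjusted p = 0.0467) and 31.0 and 17.9 in atx2/3/4/5 (log2 fold change 3.45 ± 0.81, adjusted p = 0.00325). The second of these calls was lost without Col-0 replicate 2 (adjusted p = 0.0573). The first was lost without any of 3 libraries, Col-0 replicate 2 and both of atx1/2/4/5 (adjusted p up to 0.42). CRK23 was at 1.03 and 3.92 in Col-0 and at 27.1 and 20.8 in atx1/2/4/5 (log2 fold change 2.97 ± 0.56, adjusted p = 7.57e-04), with 32.1 and 25.8 in atx2/3/4/5 (3.23 ± 0.56, adjusted p = 2.87e-04). For these 3 genes the Col-0 signal is a handful of reads at most, so the size of the change is imprecise while the groups are apart.

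Members with known immune roles were among the others that rose, and those named here were chosen for that role after their values were seen. Not all members with such a role rose: CRK2 fell in both genotypes and CRK28 was called in neither. CRK13, whose overexpression raises salicylic acid and resistance to Pseudomonas syringae, had a signal of 8.20 and 13.7 in Col-0, 34.5 and 42.4 in atx1/2/4/5 (1.76 ± 0.44) and 109.8 and 79.8 in atx2/3/4/5 (3.02 ± 0.44). CRK36, which associates with the immune kinase BIK1, was at 29.6 and 28.3, 88.5 and 56.4 (1.26 ± 0.30) and 221 and 187 (2.77 ± 0.30). CRK5, a regulator of cell death, was at 70.5 and 70.3, 164 and 117 (0.97 ± 0.21) and 174 and 182 (1.33 ± 0.21). In each gene all 4 mutant libraries lay above both Col-0 libraries, with adjusted p of 0.00578, 0.00435 and 0.0022 in atx1/2/4/5 and of 5.45e-05, 3.25e-06 and 1.26e-04 in atx2/3/4/5. The calls of CRK13 and CRK36 in atx1/2/4/5 were lost without Col-0 replicate 1 (adjusted p = 0.0598) and without atx1/2/4/5 replicate 1 (0.0668) respectively. The log2 fold changes of all 26 members called higher in atx2/3/4/5 ran from 0.24 to 5.47 and those of the 17 in atx1/2/4/5 from 0.42 to 4.64.

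**Figure D2:**
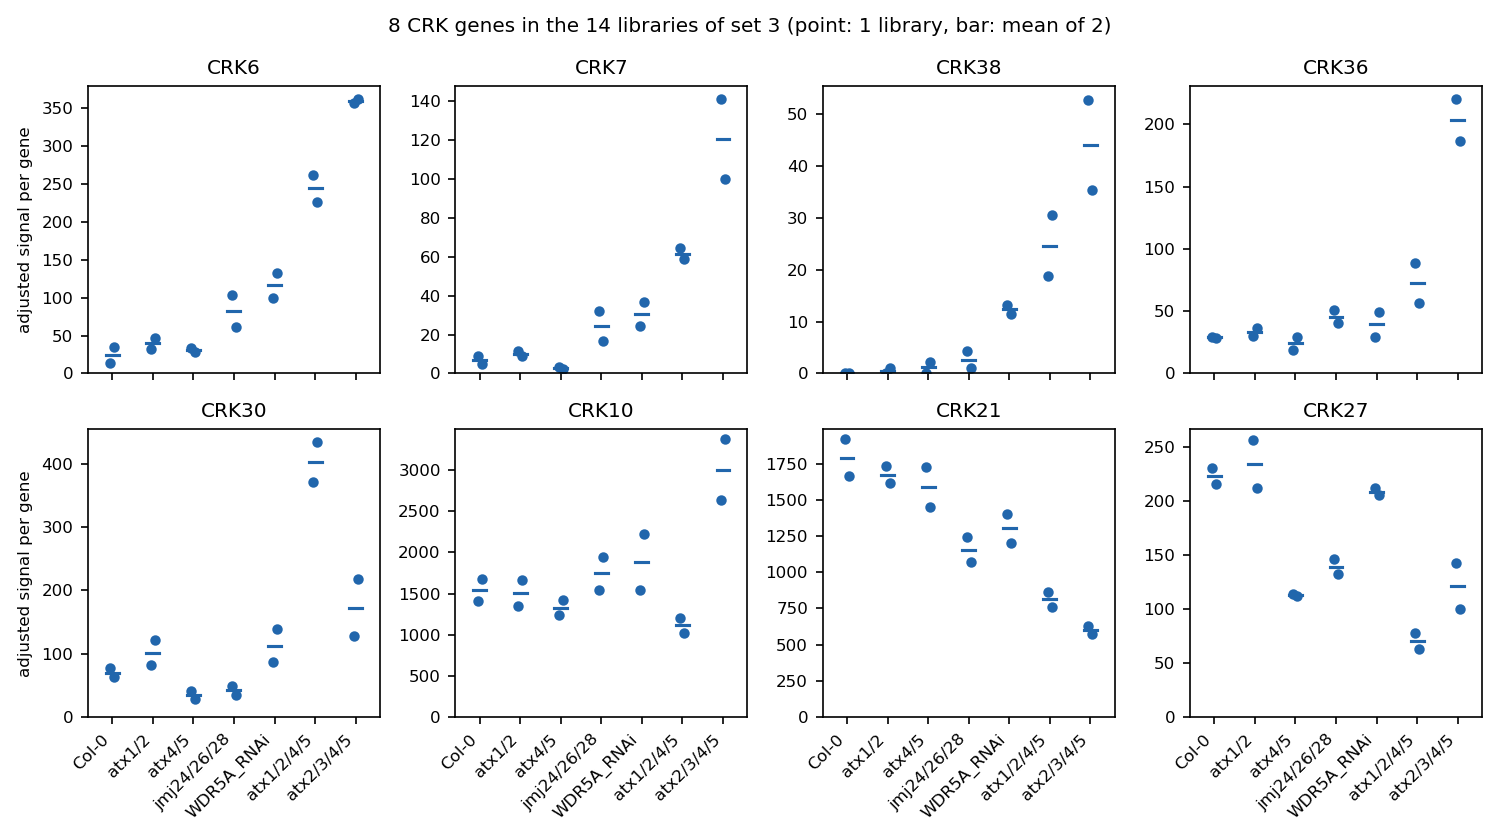
Signal of 8 CRK genes (panels, y axes from 0, not scaled for length) in the 14 libraries of set 3, with a point for each library and a bar for the mean of 2. CRK6, CRK7, CRK38 and CRK36 are highest in atx2/3/4/5 and next highest in atx1/2/4/5, CRK30 is highest in atx1/2/4/5, CRK10 is raised in atx2/3/4/5 and not in atx1/2/4/5, and CRK21 and CRK27 are lower in both than in Col-0.

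A smaller group fell. CRK21 (AT4G23290) had a signal of 1920.0 and 1665 in Col-0, 865 and 763 in atx1/2/4/5 (log2 fold change -1.14 ± 0.11, adjusted p = 4.79e-06) and 631 and 572 in atx2/3/4/5 (log2 fold change -1.57 ± 0.11, adjusted p = 1.49e-07). CRK27 was at 231 and 216 in Col-0, 77.7 and 62.7 in atx1/2/4/5 (log2 fold change -1.66 ± 0.18, adjusted p = 3.83e-06) and 143 and 99.8 in atx2/3/4/5 (log2 fold change -0.90 ± 0.18, adjusted p = 8.17e-04). These 4 calls held under every setting tried. CRK34 was at 241 and 247 in Col-0, 101 and 101 in atx1/2/4/5 (log2 fold change -1.26 ± 0.19, adjusted p = 1.07e-04) and 140.1 and 154 in atx2/3/4/5 (log2 fold change -0.73 ± 0.19, adjusted p = 0.00691), and the second of its calls was lost without atx2/3/4/5 replicate 1 (adjusted p = 0.0544). CRK42 fell in atx2/3/4/5, from 777 and 742 to 488 and 435 (log2 fold change -0.72 ± 0.12, adjusted p = 2.55e-04). CRK16 fell in atx1/2/4/5, from 32.8 and 53.8 to 20.97 and 16.8 (log2 fold change -1.12 ± 0.40, adjusted p = 0.0431), a call lost without any of 3 libraries (adjusted p = 0.281 without Col-0 replicate 2, 0.0777 and 0.191 without atx1/2/4/5 replicate 1 and 2). The high-level genes CRK2, CRK3 and CRK22 fell by 0.29 to 0.59 on the log2 scale in these 2 genotypes.

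How the libraries are scaled bears on the split between higher and lower. With the column totals set equal, the median log2 fold change of all genes was 0.13 in atx1/2/4/5 and 0.172 in atx2/3/4/5, and the share of all calls that are higher went from 48.6% to 69.4% and from 46.8% to 71%. The members then split into 18 higher and 5 lower in atx1/2/4/5 and into 27 higher and 5 lower in atx2/3/4/5. No member called changed sign in these 2 comparisons, and CRK2 and CRK3 lost their calls in both, as did CRK16 in atx1/2/4/5. Without any 1 library, 15 of the 25 calls in atx1/2/4/5 and 24 of the 33 in atx2/3/4/5 remained.

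Seedlings labelled atx1/2 and atx4/5 did not show this pattern. In atx1/2 the CRK6 signal was 32.4 and 47.3 and in atx4/5 it was 33.6 and 27.7, beside 13.4 and 35.3 in Col-0, and neither was called (adjusted p = 0.709 and 0.62). Compared directly, atx1/2/4/5 had 18 members higher and 8 lower than atx1/2, beside 31% of all genes called (15.1% higher, 15.9% lower), and 17 higher and 7 lower than atx4/5, beside 33.4% (16.4% higher, 17% lower). The genotype atx2/3/4/5 had 26 higher and 5 lower than atx4/5, beside 36.5% (17.5% higher, 19.1% lower); this last comparison was added after the values were seen. A test of the non-additive part, the change in atx1/2/4/5 less the changes in atx1/2 and atx4/5, called 9 members higher and 4 lower, 33.3% beside 18.1% (8.62% higher, 9.48% lower) of all genes. Of these 13 calls, 6 remained without any 1 library. Without replicate 1 of atx1/2/4/5 the counts were 8 higher and 8 lower against atx1/2, 14 and 8 against atx4/5, and 7 and 5 for the non-additive part. With column totals set equal these splits were 18 and 5, 19 and 5, 26 and 4 and, for the non-additive part, 11 and 3.

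CRK7 shows the non-additive pattern. Its signal was 9.17 and 4.86 in Col-0, 11.4 and 8.93 in atx1/2, 3.46 and 2.45 in atx4/5, and 64.4 and 58.9 in atx1/2/4/5. The values of atx1/2 overlapped Col-0 (log2 fold change 0.53 ± 0.40, adjusted p = 0.902), and both of atx4/5 lay below it without a call (-0.98 ± 0.40, adjusted p = 0.243). The non-additive part was 3.47 ± 0.56 on the log2 scale (adjusted p = 5.70e-04), which includes these 2 changes beside the 3.02 of atx1/2/4/5. CRK30, named here after its values were seen, was at 77.6 and 62.4 in Col-0, 81.4 and 121 in atx1/2, 40.4 and 29.1 in atx4/5 and 371 and 434 in atx1/2/4/5 (non-additive part 3.00 ± 0.43, adjusted p = 3.18e-04). In both genes the atx1/2/4/5 libraries stood apart from all those of Col-0 and of atx1/2 and atx4/5. CRK5 was lower in atx4/5, at 38.2 and 32.5 (log2 fold change -0.98 ± 0.21, adjusted p = 0.018), and higher in atx1/2/4/5; its atx4/5 call was lost without Col-0 replicate 1 (adjusted p = 0.09), Col-0 replicate 2 (0.0843) or atx4/5 replicate 2 (0.136).

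Between atx2/3/4/5 and atx1/2/4/5, a comparison also added after the values were seen, 12 members were higher and 3 lower in the former, beside 15.6% of all genes called (6.76% higher, 8.83% lower), and with column totals set equal 15 were higher and 3 lower. Without replicate 1 of atx1/2/4/5 the split was 11 and 1. CRK10 was at 2633 and 3377 in atx2/3/4/5 and at 1207 and 1026 in atx1/2/4/5 (log2 fold change 1.42 ± 0.22, adjusted p = 0.00397), with 1404 and 1680.1 in Col-0. Its call against Col-0 in atx2/3/4/5 was lost without Col-0 replicate 1 or atx2/3/4/5 replicate 2 (adjusted p up to 0.0683). CRK41 was at 519.8 and 557 and 160.0 and 153 (log2 fold change 1.78 ± 0.30, adjusted p = 0.00296), and CRK36 was higher as well (log2 fold change 1.51 ± 0.30, adjusted p = 0.00321). CRK30 went the other way, at 128 and 218 against 371 and 434 (log2 fold change -1.26 ± 0.30, adjusted p = 0.0122). The difference between the genotypes was thus not of 1 direction over the family, though the median of the 39 members was 0.67 and that of all genes -0.01. Of the 15 calls, 6 remained without any 1 library, and the count fell to 7 without atx1/2/4/5 replicate 2 and to 9 without atx2/3/4/5 replicate 1.

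In atx1/2/4/5 and atx2/3/4/5, members with a low level in wild type rose more often than those with a high level. Levels were taken from the Col-0 libraries of sets 1 and 2, which the comparisons of set 3 do not use. Of the 21 members under 50 per kilobase, 18 were called higher and 0 lower in atx2/3/4/5, with a median log2 fold change of 2.23, while of the 18 members above it 8 were higher and 7 lower, with a median of 0.07, beside 17.8% of all genes higher. In atx1/2/4/5 the low members had 14 higher and 1 lower (median 1.51) and the high members 3 higher and 7 lower (median -0.31), beside 16.2% of all genes higher. The other genotypes of set 3 had fewer calls among the 21 low members. In WDR5A_RNAi 4 were higher and none lower (median 0.90), beside 4.53% of all genes higher. In jmj24/26/28, 2 were higher and 1 lower (median 0.48), beside 1.27% of all genes higher and 2.58% lower. None was called in atx1/2 (median 0.38), beside 0.282% of all genes. In atx4/5 none was higher and 2 were lower (median -0.28), beside 2.27% of all genes lower. Across the 39 members Spearman's rho between level and change was -0.76 in atx2/3/4/5, -0.66 in atx1/2/4/5, -0.62 in WDR5A_RNAi, -0.38 in atx1/2 and 0.1 in atx4/5. In jmj24/26/28 it was -0.4 over 37 members. A negative rho was thus not particular to atx1/2/4/5 and atx2/3/4/5. These values are a description only, since members share libraries and some share reads. The log2(signal + 1) scale limits how far a gene near 0 can fall. CRK38, at 0 in both Col-0 libraries of set 3, passed the filter there through mutant libraries. The shares given are of all genes and not of genes with a similarly low level. Whether the pattern is particular to the CRK family was therefore not tested.

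**Figure D3:**
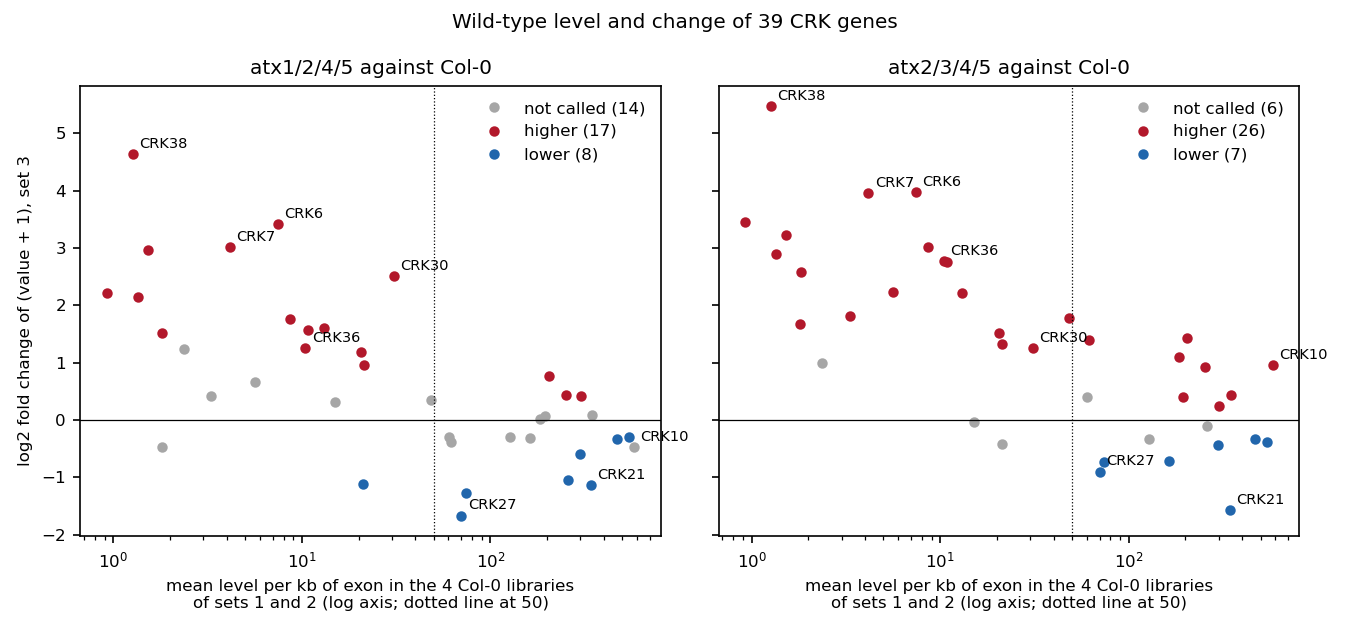
Log2 fold change of signal + 1 in set 3 (y axis) against the mean level per kilobase of exon in the 4 Col-0 libraries of sets 1 and 2 (x axis, log scale, dotted line at 50) for 39 CRK genes in atx1/2/4/5 and atx2/3/4/5. Each point is 1 gene, red if called higher, blue if called lower and grey if not called; red points lie mostly left of the line, and blue points lie right of it except 1, CRK16 in atx1/2/4/5.

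Genes that work beside the CRKs were followed in fixed lists. Of 23 genes of salicylic acid signalling and WRKY regulation, 9 rose and none fell in atx1/2/4/5, 11 rose and 2 fell in atx2/3/4/5, 5 rose and none fell in WDR5A_RNAi, and none was called in atx1/2. These are 39.1%, 56.5% and 21.7% of the list in the first 3, beside 33.3%, 38% and 9.57% of all genes. All genes had 16.2% higher and 17.1% lower in atx1/2/4/5, 17.8% and 20.1% in atx2/3/4/5, and 4.53% and 5.04% in WDR5A_RNAi. So the total in atx1/2/4/5 is close to the background, while the calls of the list there were all higher. PR2, a salicylic acid responsive glucanase gene, went from 45.1 and 76.3 in Col-0 to 1905 and 2033 in atx1/2/4/5, 3694 and 3282 in atx2/3/4/5 and 612 and 649 in WDR5A_RNAi (5.04 ± 0.19, 5.87 ± 0.19 and 3.40 ± 0.19 on the log2 scale, adjusted p = 3.70e-09, 6.20e-10 and 1.67e-06). WRKY18, which encodes a W-box-binding factor, was at 153 and 163 in Col-0, 632 and 638 in atx1/2/4/5 and 541 and 608 in atx2/3/4/5 (adjusted p = 4.45e-06 and 5.66e-06). The median log2 fold change of the list was 0.25, 0.81 and 0.16 in the 3 genotypes, with 0 for all genes.

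Of 22 genes for pattern receptors and the oxidative burst, 15 rose and 2 fell in atx2/3/4/5, and 5 rose and 2 fell in atx1/2/4/5, with medians of 0.47 and 0.08. The calls are 77.3% of the list in atx2/3/4/5, beside 38% of all genes (17.8% higher and 20.1% lower). In atx1/2/4/5 they are 31.8%, beside 33.3% (16.2% higher and 17.1% lower), so the total there is at the background. RBOHD was at 2129 and 2172 in Col-0, 3749 and 3565 in atx1/2/4/5 (log2 fold change 0.77 ± 0.08, adjusted p = 3.77e-06) and 4658 and 5092 in atx2/3/4/5 (log2 fold change 1.18 ± 0.08, adjusted p = 3.15e-08). BKK1, a co-receptor, and the kinase gene MPK3 rose in atx2/3/4/5 by 0.86 and 0.52 on the log2 scale (adjusted p = 7.53e-06 and 2.10e-05). In WDR5A_RNAi none of these 22 was called. Of the 8 PDLP genes, which encode the plasmodesmal proteins with the same DUF26 domain but no kinase, 3 rose in atx1/2/4/5 and 2 rose and 1 fell in atx2/3/4/5, with medians of 0.27 and -0.01. That is 37.5% of the PDLP genes in each, near the 33.3% and 38% of all genes (16.2% and 17.8% higher, 17.1% and 20.1% lower).

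Green tissue markers moved in the same libraries. Of 6, all fell in atx1/2/4/5 and 5 fell in atx2/3/4/5, 100% and 83.3%, beside 17.1% and 20.1% of all genes lower. Their summed signal was 1312478 to 1395877 in Col-0, 927238 to 936941 in atx1/2/4/5 and 761267 to 793470 in atx2/3/4/5. Of 12 root markers none was called in atx1/2/4/5, and 3 rose and 1 fell in atx2/3/4/5. That is 0% and 33.3%, beside 33.3% and 38% of all genes called, so neither exceeded the background. Root marker sums were 59761 to 75532 in Col-0, 78189 to 90045 in atx1/2/4/5 and 78338 to 80999 in atx2/3/4/5. Of the 5 senescence markers tested 1 rose and 1 fell in each genotype, 40%, near these shares of all genes. Whole seedlings were sampled, so fewer cells of a type and less RNA per cell cannot be told apart, and the part of these markers in the CRK values was not tested.

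CRK18 (AT4G23260) was the member called in most comparisons with Col-0, lower in 7 of 9. In set 3 its signal was 597 and 603 in Col-0, 185 and 189 in atx4/5 (log2 fold change -1.68 ± 0.14, adjusted p = 7.24e-06), 172 and 141 in jmj24/26/28 (log2 fold change -1.94 ± 0.14, adjusted p = 6.97e-07) and 274 and 242 in WDR5A_RNAi (log2 fold change -1.22 ± 0.14, adjusted p = 1.30e-04). These 3 groups lay well below Col-0, and the calls held under every setting tried. In atx1/2/4/5 it was at 317 and 265 (-1.05 ± 0.14, adjusted p = 3.86e-05), above atx4/5 and below Col-0. In atx1/2 it was at 592 and 663 and in atx2/3/4/5 at 651 and 484, with no call (adjusted p = 0.988 and 0.638). The values of atx2/3/4/5 lay on either side of Col-0, and they were higher than those of atx4/5 (log2 fold change 1.58 ± 0.14, adjusted p = 4.54e-07).

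In the other tables CRK18 fell as well. In set 1 it was at 415 and 378 in Col-0 and at 138 and 196 in ino80 (log2 fold change -1.26 ± 0.16, adjusted p = 0.00157). In set 2 it was at 698 and 795 in Col-0, 296 and 402 in jmj24 (log2 fold change -1.11 ± 0.16, adjusted p = 0.00777) and 366 and 306 in atx4/5;jmj24 (log2 fold change -1.15 ± 0.16, adjusted p = 0.00315). Mutant and Col-0 values did not overlap in any of these. Leaving out Col-0 replicate 4 ended the jmj24 call (adjusted p = 0.0532), and a fit without the mean-variance trend ended the calls in ino80, jmj24 and atx4/5;jmj24 (adjusted p = 0.0811, 0.193 and 0.114).

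CRK17 (AT4G23250), the next gene on the chromosome, did not follow CRK18. It fell in ino80, from 537 and 465 to 175 and 230.0 (log2 fold change -1.31 ± 0.14, adjusted p = 4.90e-04), and in jmj24, from 987 and 1159.6 to 791 and 737 (log2 fold change -0.49 ± 0.09, adjusted p = 0.0119). It was not called in atx4/5, at 881 and 857 beside 731 and 707 in Col-0 (adjusted p = 0.107), nor in jmj24/26/28, at 663 and 641 (adjusted p = 0.458). It rose where CRK18 fell in WDR5A_RNAi, to 903 and 1104 (0.47 ± 0.09, adjusted p = 0.00295), and in atx1/2/4/5, to 971 and 974 (0.44 ± 0.09, adjusted p = 9.37e-04). The jmj24 call was lost without Col-0 replicate 4 (adjusted p = 0.0886), jmj24 replicate 1 (0.072) or jmj24 replicate 2 (0.149), and the WDR5A_RNAi call without WDR5A_RNAi replicate 2 (0.053).

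**Figure D4:**
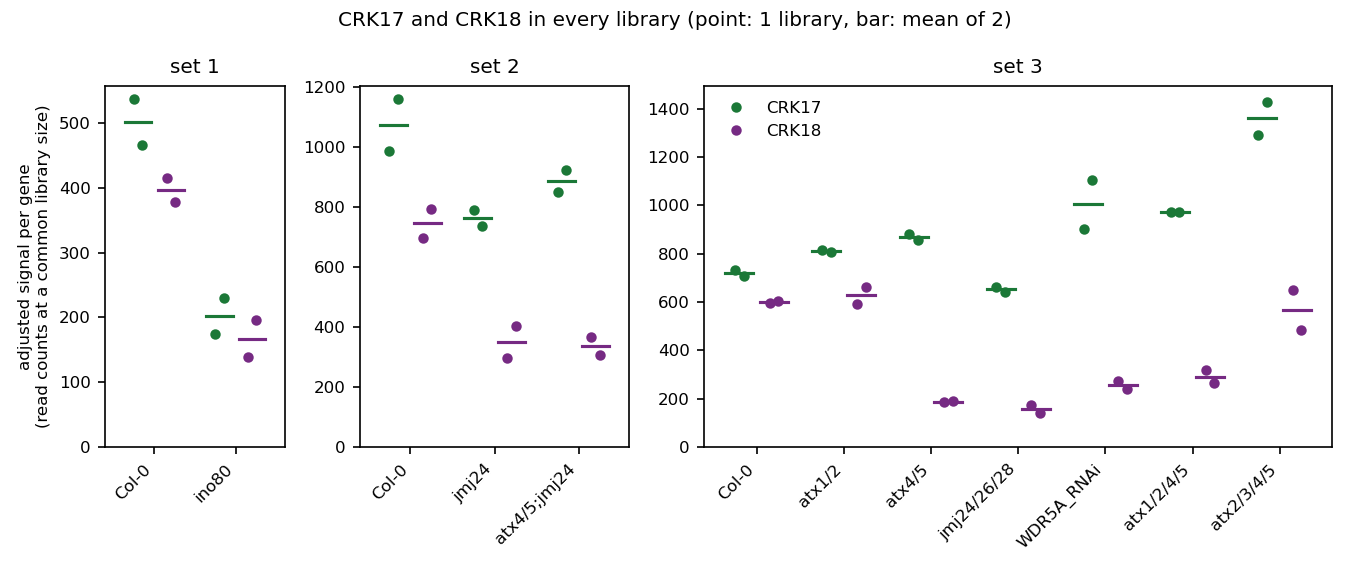
Signal of the neighbouring genes CRK17 (green) and CRK18 (purple) in all 24 libraries, 1 panel a set, with a point for each library and a bar for the mean of 2; y axes start at 0 and differ between panels, and heights of the 2 genes are not comparable because the signal is not scaled for length. CRK18 is below its Col-0 level in 7 groups and near it in atx1/2 and atx2/3/4/5, while CRK17 is below it in ino80 and jmj24 and highest of set 3 in atx2/3/4/5.

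CRK16, which overlaps CRK17, fell in 3 more genotypes besides atx1/2/4/5, from a low signal. It was at 21.6 and 7.71 in atx4/5 (log2 fold change -1.62 ± 0.40, adjusted p = 0.0387) and at 13.3 and 12.9 in jmj24/26/28 (log2 fold change -1.61 ± 0.40, adjusted p = 0.0349), with 32.8 and 53.8 in Col-0. In set 2 it was at 16.1 and 31.5 in atx4/5;jmj24 and 57.6 and 63.5 in Col-0 (log2 fold change -1.39 ± 0.34, adjusted p = 0.0311). The groups did not overlap, yet each call was lost on leaving out a library. The highest adjusted p was 0.362 in atx4/5 without atx4/5 replicate 2, 0.203 in jmj24/26/28 without Col-0 replicate 2 and 0.167 in atx4/5;jmj24 without atx4/5;jmj24 replicate 1.

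In jmj24/26/28 the 2 neighbours CRK28 and CRK29 had no signal at all. CRK28 (AT4G21400), whose overexpression strengthens immune responses and which associates with the co-receptor BAK1, was at 255 and 294 in Col-0 and at 0 in both jmj24/26/28 libraries, at least 99.55-fold lower than in Col-0 against a floor of 3 reads per library (adjusted p = 2.59e-14). CRK29 (AT4G21410) was at 839 and 798 in Col-0 and at 0 in both, at least 296.8-fold lower (adjusted p = 8.24e-18). In the 12 other libraries of set 3 the CRK28 signal stayed at 152 or more and the CRK29 signal at 609.6 or more.

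The absence of signal ran over 4 genes side by side. RK3 and B120, the receptor kinase genes before CRK28, were at 88.9 and 92.7 and at 168 and 185 in Col-0 and at 0 in jmj24/26/28, at least 32.91-fold and 63.81-fold lower (adjusted p = 4.82e-12 and 4.87e-14). On the other side JMJ28, a gene named in the genotype, was at 273 and 313 against 596 and 556 (log2 fold change -0.98 ± 0.13, adjusted p = 3.51e-04). Beyond JMJ28 the next 5 genes were not called, from MYB102 at 68.7 and 134 against 43.1 and 96.9 (adjusted p = 0.759) to FMN/FHY at 1016 and 1053 against 1109 and 1083 (0.62). The 4 genes before RK3 (MIR4239, MIR1887, MIR867 and AT4G21366) were at 0 in both genotypes and could not be read. The 4 genes without signal lie at chr4:11388827-11405235 in TAIR10.1 and JMJ28 at chr4:11407804-11412279. What removed the signal was not tested, and the labels do not describe the jmj28 allele.

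**Figure D5:**
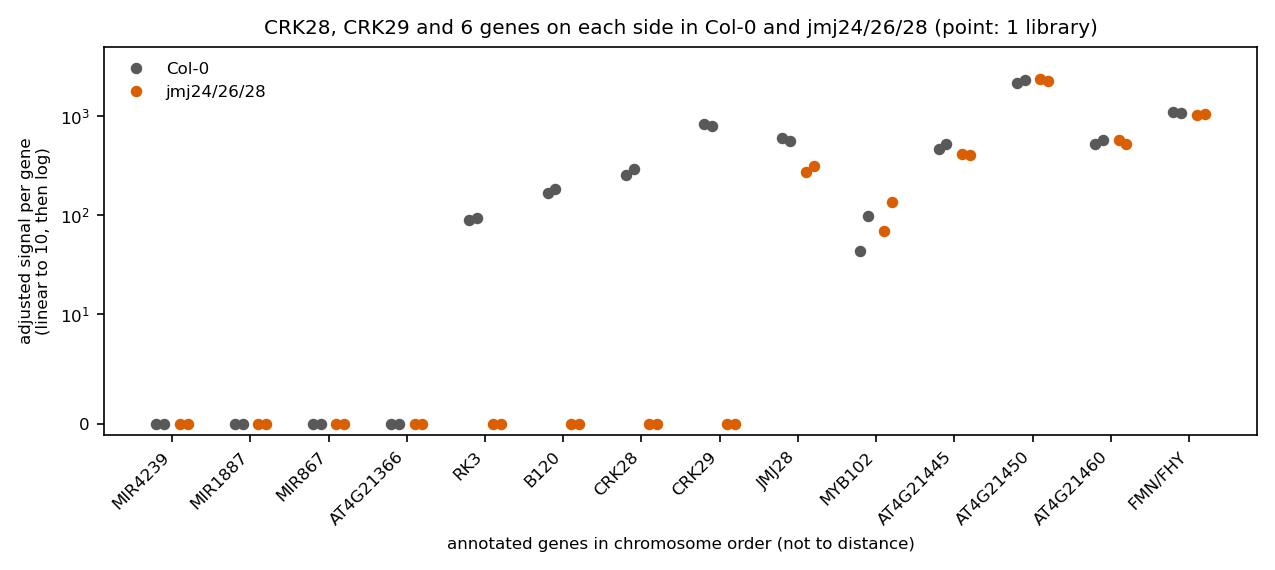
Signal (y axis, linear up to 10 and logarithmic above) of CRK28, CRK29 and 6 annotated genes on each side, in chromosome order and not to distance, in 2 Col-0 (grey) and 2 jmj24/26/28 libraries (orange). RK3, B120, CRK28 and CRK29 are at 0 in the jmj24/26/28 libraries only, and JMJ28 is lower there, at 293 against 576 on average.

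CRK29 rose in ino80, jmj24, atx4/5;jmj24 and atx2/3/4/5. It was at 403 and 394 in Col-0 and 742 and 716 in ino80 (log2 fold change 0.87 ± 0.08, adjusted p = 7.85e-05), a call that held under every setting tried. In set 2 it was at 736 and 852 in Col-0, 1193 and 1178 in jmj24 (log2 fold change 0.58 ± 0.08, adjusted p = 0.00232) and 1115 and 1199.7 in atx4/5;jmj24 (log2 fold change 0.55 ± 0.08, adjusted p = 0.00147). The mutant libraries of both lay above both Col-0 libraries, and both calls ended only in the fit without the mean-variance trend (adjusted p = 0.182 and 0.125). So the gene was higher in jmj24 and at 0 in jmj24/26/28, which were normalised in separate tables and not compared with each other. CRK28 was called higher in ino80 and in no other of the 9 genotypes, from 139 and 135 to 202 and 191 (log2 fold change 0.52 ± 0.12, adjusted p = 0.0135), a call lost without any 1 of the 4 libraries. In atx1/2 it had the lowest adjusted p of the members, at 152 and 160.4 (log2 fold change -0.81 ± 0.17, adjusted p = 0.057), and was not called.

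Other members called in jmj24/26/28 were CRK6, CRK7 and CRK9, which rose, and CRK21, CRK27 and CRK34, which fell. CRK6 was at 104 and 61.3 against 13.4 and 35.3 in Col-0 (log2 fold change 1.82 ± 0.37, adjusted p = 0.0165), and CRK7 at 32.1 and 16.8 against 9.17 and 4.86 (log2 fold change 1.65 ± 0.40, adjusted p = 0.0289). Both calls were lost without jmj24/26/28 replicate 1 (adjusted p = 0.13 and 0.254), that of CRK6 also without Col-0 replicate 1 (0.0865) and that of CRK7 without Col-0 replicate 2 (0.178). CRK9 (EP1 in the annotation) was at 308 and 297 against 182 and 197 (log2 fold change 0.67 ± 0.12, adjusted p = 0.0044), and lost its call without Col-0 replicate 1 (0.0557). The CRK27 call was lost on leaving out each of the 4 libraries in turn and with column totals set equal, which left 3 higher and 6 lower. Without any 1 library 3 of the 10 calls in this genotype remained, and the count was 5 without Col-0 replicate 1 and 6 without either jmj24/26/28 library.

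In WDR5A_RNAi the highest rises were again those of CRK38, CRK6 and CRK7. CRK38 was at 13.2 and 11.4 against 0 in both Col-0 libraries, at least 4.108-fold higher (adjusted p = 0.00192). CRK6 was at 99.96 and 132 (log2 fold change 2.35 ± 0.37, adjusted p = 0.00249) and CRK7 at 24.5 and 36.5 (log2 fold change 2.00 ± 0.40, adjusted p = 0.00569), beside 13.4 and 35.3 and 9.17 and 4.86 in Col-0. The calls of CRK38 and CRK6 held under every setting tried, while that of CRK7 was lost without Col-0 replicate 2 (adjusted p = 0.0524) or WDR5A_RNAi replicate 2 (0.0772). CRK4, whose overexpression causes cell death, was at 142 and 115 against 59.3 and 73.3 (log2 fold change 0.94 ± 0.26, adjusted p = 0.0315), and CRK21 at 1402 and 1205 against 1920.0 and 1665 (log2 fold change -0.46 ± 0.11, adjusted p = 0.0216). The CRK4 call was lost without any 1 of the 4 libraries (adjusted p up to 0.188) and that of CRK21 without Col-0 replicate 1 (0.164) or WDR5A_RNAi replicate 2 (0.176). The count of 8 calls fell to 5 without Col-0 replicate 1 and to 3 without WDR5A_RNAi replicate 2.

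In ino80 the calls went in both directions. CRK6 was at 5.25 and 8.16 in Col-0 and 49.6 and 125 in ino80 (log2 fold change 3.40 ± 0.45, adjusted p = 0.00165), CRK7 at 3.11 and 1.03 and 8.496 and 31.3 (log2 fold change 2.60 ± 0.66, adjusted p = 0.0217), and CRK15 at 5.27 and 10.2 and 15.3 and 31.3 (log2 fold change 1.45 ± 0.46, adjusted p = 0.0469). In all 3 genes ino80 replicate 2 was the higher of the pair. CRK12 fell from 46.9 and 44.0 to 19.3 and 16.5 (log2 fold change -1.30 ± 0.26, adjusted p = 0.00629) and CRK27 from 128 and 145 to 96.4 and 70.0 (log2 fold change -0.73 ± 0.18, adjusted p = 0.0189), together with CRK17, CRK18 and CRK21. Of the 10 members called, only CRK17, CRK18 and CRK29 kept their calls without any 1 library. Without ino80 replicate 2 the adjusted p was 0.0617 for CRK6, 0.265 for CRK7, 0.0867 for CRK12, 0.356 for CRK15 and 0.171 for CRK27. The count was 5 without ino80 replicate 1 and 3 without ino80 replicate 2, and 2 in the fit without the mean-variance trend. Of the 12 root markers 6 rose and 2 fell in ino80 (sums of 60217 to 70942 against 44126 to 45069), 66.7% beside 22.4% of all genes called. Of the 6 green markers 4 fell, 66.7% beside 11.7% of all genes lower. The part of these markers in the CRK values was not tested.

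In set 2 the calls were few. CRK9 fell in jmj24, from 534 and 622 to 301 and 309 (log2 fold change -0.92 ± 0.10, adjusted p = 6.21e-04), and in atx4/5;jmj24, to 427 and 421 (log2 fold change -0.44 ± 0.10, adjusted p = 0.0203), whereas it rose in jmj24/26/28. The second of these calls was lost without Col-0 replicate 4 (adjusted p = 0.14), atx4/5;jmj24 replicate 1 (0.0682) or atx4/5;jmj24 replicate 2 (0.105). CRK27 fell in atx4/5;jmj24, from 167 and 131 to 86.2 and 60.1 (log2 fold change -1.03 ± 0.21, adjusted p = 0.0125), and in atx4/5, from 231 and 216 to 114 and 112 (log2 fold change -0.97 ± 0.18, adjusted p = 0.00569). Its first call failed without Col-0 replicate 3 (0.108) or atx4/5;jmj24 replicate 2 (0.103), and the second without Col-0 replicate 1 (0.0532). Between atx4/5;jmj24 and jmj24, 2 members were higher in the former, CRK6 (log2 fold change 1.89 ± 0.31, adjusted p = 0.0185) and CRK23 (log2 fold change 3.11 ± 0.53, adjusted p = 0.0216), beside 0.746% of all genes called (0.152% higher, 0.594% lower); both calls were lost on leaving out each of the 4 libraries in turn. In jmj24 and atx4/5;jmj24 4 of 12 root markers rose and none fell (33.3%, beside 2.82% and 7.71% of all genes). Of the 6 green tissue markers 1 fell in jmj24 and 3 in atx4/5;jmj24 (LHCB2.1, PSAD1 and RCA, by 0.75, 0.44 and 0.23 on the log2 scale). That is 16.7% and 50%, beside 1.43% and 4.51% of all genes lower. LHCB2.1, the 1 called in jmj24, averaged 2234 in Col-0 of this set, beside 51884 in set 1 and 131463 in set 3. Its signal in set 2 is thus far lower than in the other sets, for a reason not tested, and its calls there are uncertain. The sums of the 6 were 765824 to 773371 in Col-0, 746706 to 754372 in jmj24 and 643854 to 658669 in atx4/5;jmj24. The part of these markers in the CRK values was not tested. With column totals set equal, atx4/5;jmj24 had 2 members higher and 4 lower.

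Calls were also counted by run of neighbours. All genes had 17.8% higher and 20.1% lower in atx2/3/4/5, and 16.2% and 17.1% in atx1/2/4/5. In the run of CRK36 to CRK40 all 5 genes were higher in atx2/3/4/5 and 4 in atx1/2/4/5, with median log2 fold changes of 2.89 and 2.14. In the run of 20, 16 rose and 2 fell in atx2/3/4/5 and 11 rose and 4 fell in atx1/2/4/5, with medians of 1.56 and 0.55. CRK27 to CRK29 had 1 higher and 1 lower in atx2/3/4/5 and 1 lower in atx1/2/4/5. The 4 genes tested in the run of CRK30 to CRK34 had 2 higher and 1 lower in atx2/3/4/5, and 1 higher and 1 lower in atx1/2/4/5. The 7 members tested outside the runs had 2 higher and 3 lower in atx2/3/4/5, and 1 higher and 2 lower in atx1/2/4/5, with medians of -0.33 and -0.30. Within the run of 20, adjacent genes could go opposite ways in the same libraries, as CRK21 and CRK20 did in atx2/3/4/5 (-1.57 ± 0.11 and 2.23 ± 0.53 on the log2 scale, both called). These counts describe runs of few genes and were not compared by a test.

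Of the 39 members tested, 3 were called in none of the 9 comparisons with Col-0: CRK25, CRK26 and CRK32. Their log2 fold changes lay between -0.33 and 0.17, between -0.50 and 0.68, and between -0.48 and 1.92. Their signal in the Col-0 libraries of set 3 was 585 and 439, 69.4 and 56.6 and 3.08 and 6.85 respectively, so CRK32 rests on a few reads, and a missed threshold does not show that these genes did not differ.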

How the data were processed

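RNA sequencing of 24 libraries was deposited as 3 tables of 32548 genes. Each deposited value is a signal per gene that the authors had normalised. HISAT2 2.2.0, edgeR (version not given) and the build TAIR10 are named by the authors, per the submitters' processing notes. From their spacing the values look like read counts scaled within a table to 1 library size. The read counter, strand and filters are not given in the sources used here, and per the labels' protocols libraries had either 150-base paired or 50-base single reads.

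Values under 0.01 were set to 0. The test planned for raw counts did not apply to this signal, so limma 3.58.1 (R 4.3.3, statmod 1.5.0) was run on log2(value + 1), with trend and robust moderation, all groups of a table in 1 fit, and genes of at least 1 in at least 2 libraries. It was checked on simulated data in which only genes well above the floor in Col-0 were changed. How well it finds changes in genes with a low signal, such as CRK7, CRK23, CRK38 and CRK39, was not checked. The estimated depth of 18.8 to 33.5 M reads limits genes with few reads.

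The members and lists were chosen with earlier results of these data known. In each comparison with Col-0, up to 4 called members a direction with the largest change were described in full if the higher of the groups averaged at least 10, beside CRK28 and CRK29, the 3 highest and 3 lowest Col-0 levels, and up to 3 genes a list. Other members were described after their values were seen. The comparisons of atx2/3/4/5 with atx4/5 and with atx1/2/4/5 were also added after the values were seen. Coordinates, overlaps and promoters are from the RefSeq annotation of TAIR10.1, which keeps the nuclear sequence of TAIR10. Figures were drawn with matplotlib 3.10.9.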

Additional observations from a re-analysis of the deposited data

Results flagged for a closer look

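The change in atx1/2/4/5 differed from the sum of the changes in atx1/2 and atx4/5 in 13 members, by limma's test of that difference with Benjamini-Hochberg adjustment over all genes. On the log2 scale it exceeded the sum by 4.02 in CRK39, 3.47 in CRK7, 3.22 in CRK38, 3.00 in CRK30, 2.14 in CRK6, 2.03 in CRK5, 1.88 in CRK13, 1.35 in CRK36 and 0.67 in CRK9. It lay below the sum in 4 members, with differences of -0.90 in CRK22, -0.87 in CRK21, -0.75 in CRK27 and -0.56 in CRK3. Of these 13 calls, 6 remained without any 1 library, those of CRK3, CRK5, CRK7, CRK21, CRK22 and CRK30, which also held under every other alternative tried. The others were lost under 1 or more of the 14 alternatives, CRK27 under 10 of them, CRK13 under 9, CRK36 under 7, CRK39 under 6, CRK38 under 4, CRK6 under 3 and CRK9 under 1. The highest adjusted p was 0.196 in CRK13, 0.175 in CRK27, 0.157 in CRK36, 0.11 in CRK39, 0.0903 in CRK38, 0.0629 in CRK9 and 0.0606 in CRK6. CRK38 and CRK39 rest on a few reads in Col-0, atx1/2 and atx4/5.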

How the results depend on the processing

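Of 63 named results for a member in a comparison, 27 kept their call under every alternative tried, 36 lost it under at least 1, and 0 changed direction. Without the mean-variance trend the number of members called was 2 in ino80, 0 in jmj24, 0 in atx4/5;jmj24, 5 in jmj24/26/28, 1 in atx1/2, 8 in the non-additive test and 0 in atx4/5;jmj24 against jmj24. In atx1/2 it was also 1 with a pseudocount of 5 and 1 with a minimum of 10, and in atx4/5;jmj24 against jmj24 it was 1 with that minimum. Leaving out 1 library gave 3 to 7 members in ino80, 2 to 5 in jmj24, 3 to 4 in atx4/5;jmj24, 5 to 8 in jmj24/26/28, 1 to 4 in atx4/5, 18 to 22 in atx1/2/4/5, 29 to 30 in atx2/3/4/5, 3 to 9 in WDR5A_RNAi, 15 to 19 in atx1/2/4/5 against atx1/2, 19 to 22 in atx1/2/4/5 against atx4/5, 28 to 30 in atx2/3/4/5 against atx4/5, 7 to 12 in atx2/3/4/5 against atx1/2/4/5, 6 to 12 in the non-additive test and 0 in atx4/5;jmj24 against jmj24. The lowest counts came without ino80 replicate 2, Col-0 replicate 4 (jmj24), Col-0 replicate 1 (jmj24/26/28 and atx4/5), WDR5A_RNAi replicate 2 and atx1/2 replicate 1 (against atx1/2 and the non-additive test). With column totals set equal, the share of all calls that were higher went from 47.8% to 68.2% in ino80, where 7 members were higher and 5 lower, and from 41.5% to 52.7% in atx4/5;jmj24. The cause of these shifts was not tested. Across all genes the deviations of same-numbered libraries correlated at -0.005 to 0.108 over 21 pairs of groups in set 3, with 2 above 0.1, and at 0.084 in set 2, so the numbers were not taken to pair the libraries. Over the 39 members the same correlations were -0.239 to 0.332, with a median of 0.035. Some lists did move with the number: the summed root markers were higher in replicate 1 in 7 of 7 groups of set 3. The summed salicylic acid list was higher in replicate 2 in 5 of 7, all but atx1/2/4/5 and atx2/3/4/5. It was also higher in replicate 2 of ino80 (5258 and 8102), jmj24 (7212 and 9650) and atx4/5;jmj24 (8440 and 11088). In Col-0 it was 6284 and 9517 in set 1 and 8022 and 11944 in set 2, higher in the later number. The part of this shift in the CRK values was not tested. In sets 1 and 2 Col-0 is numbered 3 to 6 and the mutants 1 and 2. A replicate block therefore cannot be used for the comparisons with Col-0 in these sets. In the other comparisons it gave 1 call in atx1/2 and 0 in atx4/5;jmj24 against jmj24. It moved no other count of members there by over 1.5 times. Depth limits CRK8, CRK23, CRK24, CRK31, CRK32, CRK37, CRK38 and CRK39, which have a signal under 15 in every Col-0 library. CRK7 and CRK20 are as low in 5 of the 6, and reach 27.2 in Col-0 replicate 4.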
